A study of Mus musculus with 6 samples.

Results

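Genes of T cell costimulation, immune checkpoints and regulatory T cells were examined in mouse spleen. The set held 10 genes, Cd28, Ctla4, Icos, Pdcd1, Btla, Foxp3, Tnfrsf4, Tnfrsf18, Lag3 and Il2ra, and its probes were those to which the platform's annotation gave one of these symbols. They were 16 of the 25697 probes on the Illumina MouseRef-8 v2 array, and 10 of its 16593 annotated genes. Total RNA from the spleen of mice of genotype Rag2/pfp KO was hybridised to 3 arrays, and that of wild-type mice to another 3. The Rag2 protein is part of the recombinase that joins the segments of T and B cell receptor genes, and pfp stands for perforin, whose gene is now called Prf1. Mice without Rag2 are known to lack mature T and B cells, and natural killer (NK) cells develop in them. The labels used here give no strain, age or treatment and do not tie arrays to individual animals. The comparison asks how these transcripts differ between a spleen of the knockout genotype and a wild-type spleen.

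CD28 on T cells binds CD80 and CD86 on antigen-presenting cells and gives the second signal that a T cell needs beside its antigen receptor. CTLA-4 competes for the same ligands and restrains the response, while ICOS, PD-1 and BTLA are relatives with ligands of their own. OX40 (Tnfrsf4) and GITR (Tnfrsf18) are costimulatory receptors of the TNF receptor family, and LAG-3 is an inhibitory receptor related to CD4. Foxp3 is the transcription factor that defines regulatory T cells, which in the spleen carry CTLA-4, GITR and CD25, the IL-2 receptor alpha chain encoded by Il2ra. Several of these genes are not restricted to T cells: BTLA is abundant on B cells, and LAG-3, ICOS, OX40 and GITR occur on activated NK cells, innate lymphoid cells or other leukocytes.

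Of the 10 genes, 8 had a probe that was detected well enough to test, and 4 of these were lower in the knockout: Cd28, Ctla4, Btla and Foxp3. None of the 8 was called higher, and 0 were higher at an unadjusted p under 0.05 in limma, against 6 that were lower. The share of all tested genes at that unadjusted threshold was not computed. Counts at it, here and for the lists below, are therefore only descriptive. Icos, Tnfrsf4, Tnfrsf18 and Lag3 were not called, and Pdcd1 and Il2ra were too close to background to be tested. Across the array, 2.88% of the 9158 tested genes were called lower and 1.04% were called higher. The median difference was -1.35 on the log2 scale over the 8 genes and 0.03 over all tested genes. Because Cd28 and Ctla4 reached the test through the wild-type arrays alone, the count and the median describe the set and support nothing further. RNA was taken from whole spleen, so fewer cells of a type and less RNA per cell cannot be told apart in any of these differences.

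Sequences next to the transcription start were read for Ctla4, Btla and Foxp3 from RefSeq (GRCm38.p6). Shown are the 250 bases before the annotated start of Ctla4 at chr1:60908775-60909024, of Btla at chr16:45224087-45224336 and of the first of the starts of Foxp3 at chrX:7579426-7579675, all on the plus strand and 5′ to 3′. They are shown because these genes were all called lower, and capitals mark the matches to 4 short motifs. The motifs were TATAAA (the TATA box), TGTGGT (the Runx core), GGAAAA (an NFAT-type core) and TGACGT (part of the cAMP response element), each searched on both strands.
Ctla4: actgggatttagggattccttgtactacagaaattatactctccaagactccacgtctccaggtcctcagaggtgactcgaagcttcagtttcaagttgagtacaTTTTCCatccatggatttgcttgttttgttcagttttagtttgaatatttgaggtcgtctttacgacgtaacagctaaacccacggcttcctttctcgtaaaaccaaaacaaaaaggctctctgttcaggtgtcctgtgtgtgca
Btla: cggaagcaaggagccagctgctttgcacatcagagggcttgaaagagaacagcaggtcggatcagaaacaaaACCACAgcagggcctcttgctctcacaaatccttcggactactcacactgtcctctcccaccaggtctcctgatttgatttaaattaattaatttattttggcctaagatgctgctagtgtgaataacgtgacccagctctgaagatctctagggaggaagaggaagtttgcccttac
Foxp3: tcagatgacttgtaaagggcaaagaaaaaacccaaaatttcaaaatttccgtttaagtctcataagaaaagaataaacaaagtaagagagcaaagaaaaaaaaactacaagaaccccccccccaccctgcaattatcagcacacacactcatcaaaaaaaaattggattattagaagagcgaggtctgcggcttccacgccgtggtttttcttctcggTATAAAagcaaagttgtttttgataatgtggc
The capitals in Ctla4 are the reverse complement of GGAAAA, those in Btla the reverse complement of TGTGGT, and those in Foxp3 are TATAAA itself. Among 32851 upstream windows of this length in the same table, 20.4% held GGAAAA, 14% held TGTGGT, 12.4% held TATAAA and 6.47% held TGACGT on either strand. Each of the windows shown held 1 match, so no matches overlapped. The window before the other listed start of Foxp3, not shown, held 1 match to GGAAAA and 0 to TATAAA on either strand. Such matches describe letters and are no measure of binding. Cd28, Ctla4 and Icos lie next to each other on chromosome 1, with 0 protein-coding genes between neighbours, and Tnfrsf4 and Tnfrsf18 lie next to each other on chromosome 4.

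Values below are raw bead signals, on a linear scale, followed by normalised log2 levels with the SD over 3 arrays. A probe counted as detected on an array when the authors' detection p-value, which sets it against the negative control beads, was under 0.05. Tests were made with limma on background-corrected, quantile-normalised log2 values, with p-values adjusted by Benjamini-Hochberg over 12885 tested probes and a call at an adjusted p under 0.05. Detected probes numbered 12084 to 12595 on the knockout arrays and 12545 to 13149 on the wild-type arrays, and the lowest signal of a detected probe lay between 147 and 162. Knockout array 2 stood apart: both probes of Xist, which is transcribed from the inactive X, were undetected on it alone, and Eif2s3y, a Y-linked gene, was detected on it alone. This is the pattern of a male, and the other arrays had that of females, so the knockout group mixed the sexes. What part sex has in the values of knockout array 2 was not tested. Spic and Vcam1, which mark splenic red pulp macrophages, were detected on all 6 arrays. Cd5l, looked up with them as a further spleen marker, was detected on no array. These markers were chosen after the data had been seen. The Rag2 probe was detected on no array, so it does not check the labels. Prf1 was detected on all of them without a call (0.34 ± 0.32 log2, SE), and where its probe lies relative to the disrupted part is not known.

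**Figure D1:**
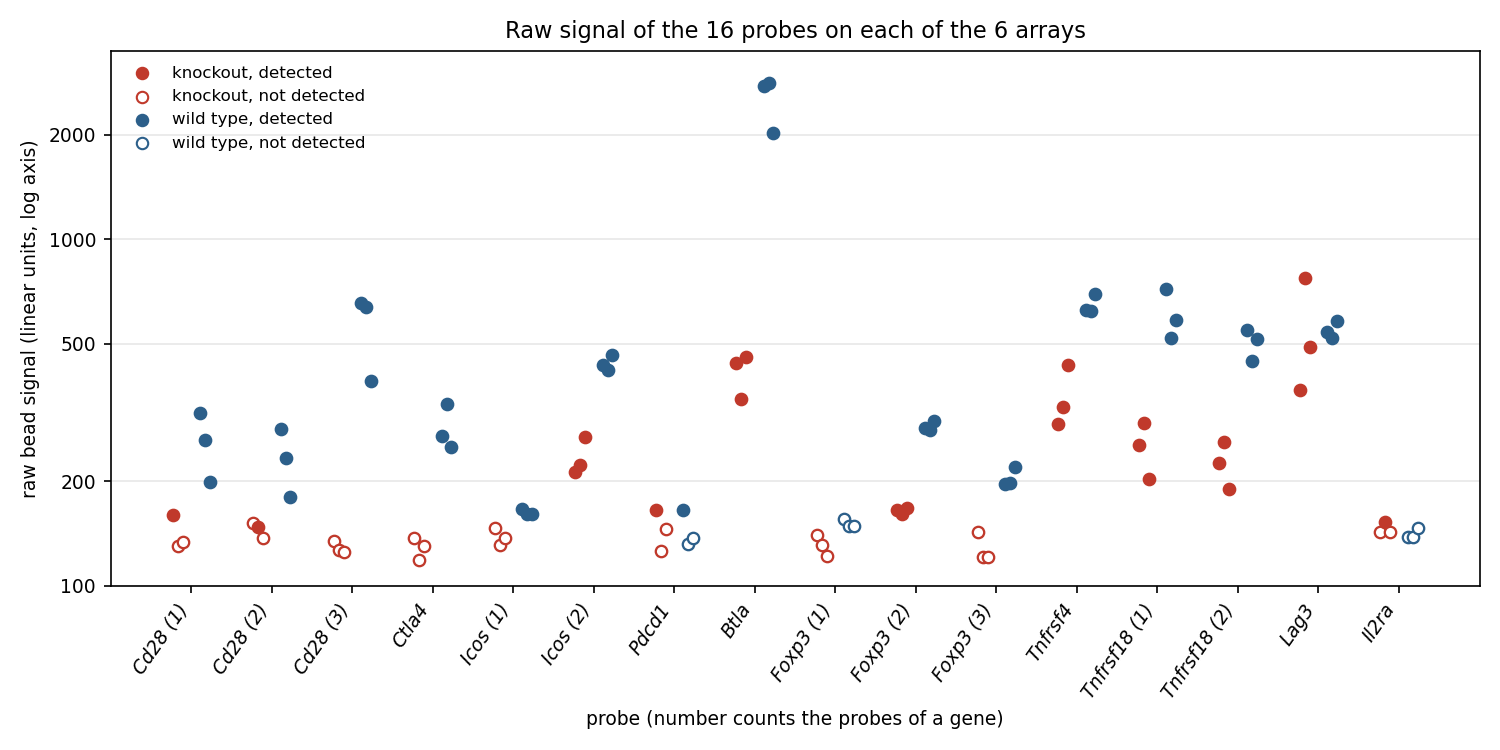
Raw bead signal (linear units on a log axis) of each of the 16 probes on the 3 knockout and 3 wild-type arrays, with filled points for detected and open points for undetected values. Btla, Cd28 and Ctla4 separate widely, Lag3 overlaps, and Pdcd1 and Il2ra stay between 126 and 165 on all arrays.

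Cd28, the prototype costimulatory receptor, was lower in the knockout, and on background-corrected values its difference was larger than that of Btla, whereas on the authors' log2 values that of Btla was larger. Its brightest probe gave 135, 127 and 125 on knockout arrays 1 to 3 and 656, 639 and 390.0 on wild-type arrays 1 to 3. Each knockout value was below the lowest wild-type value, and the probe was detected on none of the knockout arrays. The normalised log2 level was 4.85 ± 0.03 against 8.55 ± 0.38 in wild type (SD, n = 3). They differed by -3.70 ± 0.25 (SE, limma adjusted p = 4.83e-05). On background-corrected values Cd28 was at least 8.55-fold lower, the wild-type mean set against the detection limit of the knockout arrays. That figure holds for corrected values only, since the ratio of the mean raw signals was 4.36. Here and below, the limit of an array is its lowest level among detected probes, or the value of the probe itself where that is higher.

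The other probes of Cd28 were dimmer and pointed the same way. One gave 159.8, 129.8 and 133 in the knockout against 314, 264 and 199 in wild type, a log2 difference of -1.76 ± 0.28 (SE, limma adjusted p = 0.00968). The remaining one gave 152, 147 and 138 against 284, 234 and 179.9, a difference of -1.29 ± 0.29 (SE, limma adjusted p = 0.0429). Neither overlapped between the groups, and each was detected on 1 of the 3 knockout arrays. The 3 probes of Cd28 were thus all called lower on background-corrected values, where 2.94% of all tested probes were. The brightest of them reached the test through the wild-type arrays alone. On the authors' log2 values the dimmer probes differed by -0.71 (limma adjusted p = 0.0492) and -0.50 (limma adjusted p = 0.125), the latter not called.

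Ctla4, which encodes the inhibitory receptor for the ligands of CD28 and is carried by regulatory T cells, gave 137, 119 and 130.4 in the knockout and 271, 335 and 251 in wild type. No knockout array detected it and every wild-type array did. Its level was 4.85 ± 0.10 against 7.17 ± 0.38 log2 (SD, n = 3), a difference of -2.31 ± 0.26 (SE, limma adjusted p = 0.00130). On background-corrected values it was at least 3.28-fold lower in the knockout, and the ratio of the mean raw signals was 2.22.

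Icos, a costimulatory receptor of helper and regulatory T cells, differed less. The brighter of its probes gave 213, 223 and 269 in the knockout and 435, 419.6 and 464 in wild type, and was detected on all arrays. These groups did not overlap, but the knockout arrays were spread widely after normalisation, at 7.19 ± 0.59 against 8.13 ± 0.29 log2 (SD, n = 3). The difference was -0.94, with a 95% interval of -1.68 to -0.21, and it was not called (limma adjusted p = 0.160). Without knockout array 1 it was -0.62. The dimmer Icos probe gave 146, 131 and 137 against 167, 161 and 161, was undetected on all knockout arrays, and was not called either (limma adjusted p = 0.311).

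Btla, an inhibitory receptor of B and T cells, was detected on every array. Its signal was 439.7, 345 and 458 in the knockout and 2764, 2829.5 and 2027 in wild type. The groups were far apart relative to their spread, at 8.47 ± 0.30 and 11.12 ± 0.17 log2 (SD, n = 3). The difference was -2.64 (95% interval -3.20 to -2.09), a 6.25-fold lower level in the knockout (limma adjusted p = 3.79e-04). A residual signal well above the detection limit thus remained in the knockout spleen for Btla, unlike for Ctla4 and the brightest Cd28 probe.

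Pdcd1, which encodes the checkpoint receptor PD-1, could not be told from background. Its only probe gave 165, 126 and 145 in the knockout and 165, 132 and 138 in wild type, and was detected on knockout array 1 and wild-type array 1 alone. The groups overlapped almost completely, with an exact two-sided permutation p of 0.6 over the 6 arrays, where 0.1 is the smallest p that 3 arrays against 3 allow. At this signal a difference was not detectable.

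Foxp3, the defining factor of regulatory T cells, was lower in the knockout at a weak signal. Its brightest probe gave 166, 161 and 168 in the knockout and 285, 281 and 299 in wild type. The knockout values were close to the detection limit, with detection p-values of 0.0263, 0.0213 and 0.00877, and lay below every wild-type value. The level was 5.91 ± 0.31 against 7.22 ± 0.28 log2 (SD, n = 3). The difference was -1.31 (95% interval -1.90 to -0.72), a 2.48-fold lower level (limma adjusted p = 0.0286).

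A dimmer Foxp3 probe gave 143, 121 and 121 in the knockout, all undetected, and 197, 198 and 219.6 in wild type, all detected. On background-corrected values it was at least 1.79-fold lower (limma adjusted p = 0.0191). The third Foxp3 probe was detected on no array, at 122 to 139.7 in the knockout and 148 to 156 in wild type, and was not tested in the fit. Its exact two-sided permutation p was 0.1, the smallest that 6 arrays allow. The Foxp3 call was lost when any 1 wild-type array was left out, with limma adjusted p of 0.0897, 0.133 and 0.140 without wild-type arrays 1, 2 and 3. It was also lost on the authors' own log2 values, where the difference was -0.59 (limma adjusted p = 0.0673).

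Tnfrsf18, the gene of GITR, came close to the threshold. Its brighter probe gave 255, 295 and 203 in the knockout and 717, 518 and 583 in wild type. No knockout value reached the wild-type range, at 7.33 ± 0.62 against 8.73 ± 0.25 log2 (SD, n = 3). The difference was -1.40 (95% interval -2.14 to -0.65), short of a call (limma adjusted p = 0.0526). Its other probe gave 226, 259.6 and 189.9 against 546, 446 and 516, a difference of -1.35 ± 0.32 (SE, limma adjusted p = 0.0548). Without knockout array 2, the array on which Tnfrsf18 was highest, the difference of the brighter probe was -1.75 and it was called (limma adjusted p = 0.0112).

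Tnfrsf4, the gene of OX40, gave 293, 329 and 435 in the knockout and 627, 619 and 696 in wild type. The raw signals did not overlap, but the normalised levels did, at 8.12 ± 0.67 and 8.86 ± 0.29 log2 (SD, n = 3). The difference was -0.74 (95% interval -1.53 to 0.04) and was not called (limma adjusted p = 0.307). Without knockout array 1 it was -0.38. The interval over all arrays includes both no difference and a loss of the size seen for Foxp3.

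Lag3, the inhibitory receptor for MHC class II and fibrinogen-like protein, was the only member whose tested difference lay above 0. Its signal was 368, 774 and 488 in the knockout and 539, 517 and 581 in wild type. The knockout arrays lay on both sides of the wild-type arrays, at 8.89 ± 0.98 against 8.55 ± 0.28 log2 (SD, n = 3). The difference was 0.34 (95% interval -0.66 to 1.33) and was not called (limma adjusted p = 0.769). Without knockout array 2 it was -0.14, so its sign rested on that array, and without knockout array 1 it was 0.83.

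Il2ra gave 143, 153 and 143 in the knockout and 138, 138 and 147 in wild type. The probe was detected on knockout array 2 alone, with a detection p-value of 0.0338, and was not tested in the fit. The groups overlapped, with an exact two-sided permutation p of 0.3 over the 6 arrays. Its level in either spleen was therefore at or under what these arrays resolve.

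**Figure D2:**
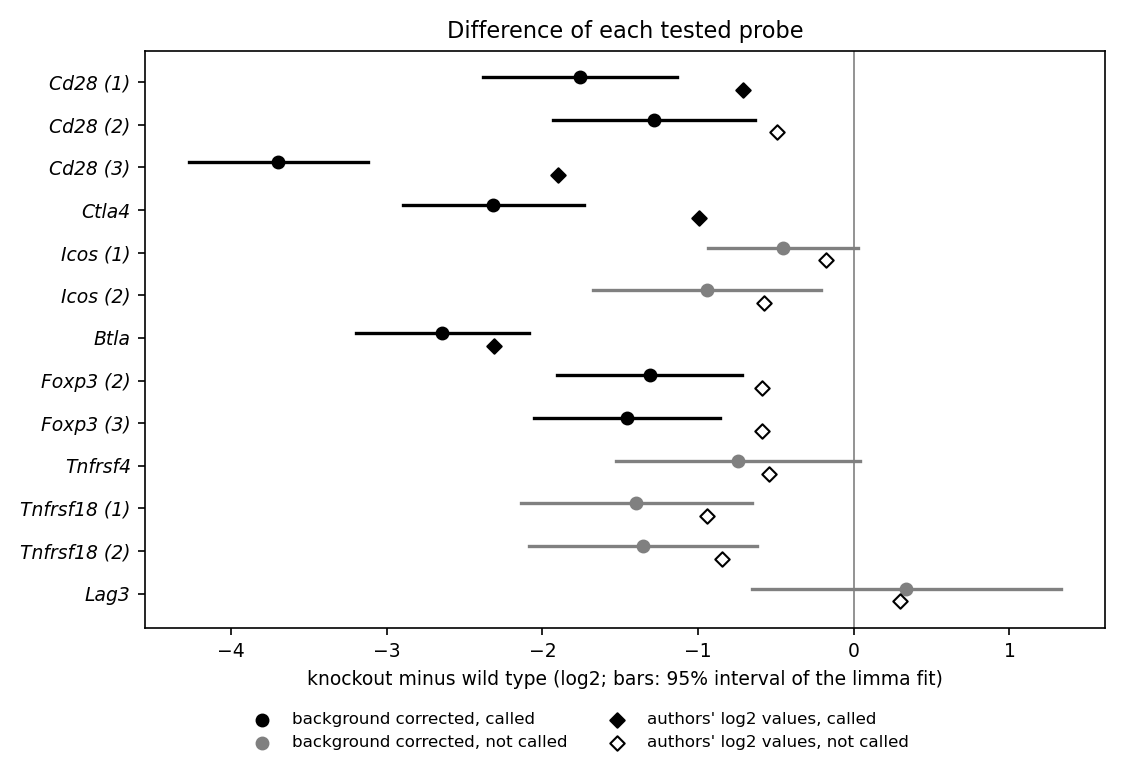
Knockout minus wild type (log2) for the 13 tested probes: circles with 95% intervals of the limma fit are background-corrected values, black where called, and diamonds are the authors' log2 values, filled where called. On the authors' values every one of the called probes lies closer to 0, with the brightest Cd28 probe at -1.90 instead of -3.70, while Btla moves only from -2.64 to -2.31.

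Of the 13 tested probes, 7 were called lower, and of the 8 genes, 6 had all knockout arrays below all wild-type arrays. That pattern held for 12.3% of all tested genes, and 2.94% of all tested probes were called lower. Of the 13 probes, 4 were detected on no knockout array and reached the test through the wild-type arrays alone. These counts therefore describe the set and support nothing further. The authors' deposited log2 values, which carry no background correction, gave smaller differences for dim probes: -1.90 for Cd28 (limma adjusted p = 0.00145), -0.99 for Ctla4 (0.0178) and -2.31 for Btla (5.61e-04). By the brightest probe of each, these 3 genes were called on both scales. In size, the differences of Cd28 and Ctla4 therefore depend on how background is treated, and that of Btla depends on it little.

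The members did not vary alike across the 3 knockout arrays. Relative to the wild-type mean, Cd28 lay at -3.71, -3.66 and -3.72 on knockout arrays 1 to 3, and Ctla4 at -2.28, -2.43 and -2.23, all at undetected signals. Btla lay at -2.87, -2.75 and -2.31. These 3 genes were low on every knockout array. For Cd28 and Ctla4 the spread between knockout arrays is that of the background level and says nothing about the transcripts.

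Icos lay at -1.58, -0.82 and -0.43 relative to the wild-type mean, and Tnfrsf4 at -1.47, -0.59 and -0.16. Tnfrsf18 lay at -1.68, -0.68 and -1.83, and Lag3 at -0.66, 1.29 and 0.38. Icos, Tnfrsf4 and Lag3 were lowest on knockout array 1, whereas Tnfrsf18 was lowest on array 3, and Lag3 and Tnfrsf18 were highest on array 2. Foxp3 lay between these patterns, at -1.66, -1.19 and -1.08.

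Markers of the cells that carry these receptors were measured beside them. Over all tested genes, 2.88% were called lower and 1.04% higher. Of 12 T cell markers, 9 were tested and 6 were called lower, among them Cd8b1 (-4.16 ± 0.35, SE) and Cd3d of the antigen receptor complex (-4.82 ± 0.30, SE). The 3 not called were Lat (-0.95 ± 0.46), Cd4 (-0.60 ± 0.33) and Cd247 (-0.38 ± 0.25, SE), named after their values were seen. The Cd4 probe was dim, at 174, 176 and 138 in the knockout and 220, 204 and 210 in wild type. Cd3e and Cd6 were undetected on all knockout arrays, and the summed level of the list was 530 to 1195 in the knockout against 13359 to 16114 in wild type (normalised linear values). All 8 tested B cell markers were called lower, with Cd79b at -4.45 ± 0.21 (SE). Ms4a1, Cr2 and Fcmr were undetected in the knockout, Fcmr being at least 248-fold lower on background-corrected values (80.9-fold in raw signal), and the summed level was 695 to 932 against 28279 to 33065. The part that these cells have in the differences of the members was not tested.

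Few markers of cells that develop without Rag2 were called. Of 7 tested NK cell markers, 0 were called, with 0 lower and 3 higher at an unadjusted p under 0.05 in limma. Those 3 were Klrb1c (1.24 ± 0.32), Klre1 (0.93 ± 0.24) and Klrk1 (0.84 ± 0.29, SE). They are named outside the rule for named genes, since their values had been seen. A dimmer Klrk1 probe differed by 0.29 ± 0.36 (SE). Among the 7 differences, 5 lay above 0 and 2 below. Ccl5 differed by 0.24 ± 0.26 and Nkg7 by -0.64 ± 0.37 (SE), Ncr1, Eomes and Gzma were not tested, and the summed level was 7431 to 14294 in the knockout against 10342 to 10753 in wild type. Averaged over the NK list, the level relative to the wild-type mean was 0.02, 0.67 and 0.48 on knockout arrays 1 to 3. Of 5 tested innate lymphoid cell markers, 0 were called, with 1 lower and 1 higher at an unadjusted p under 0.05 in limma. That count takes the brightest tested probe of a gene, and a second Il7r probe was called lower, at -1.52 ± 0.27 (SE, limma adjusted p = 0.0188).

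Rora of the innate lymphoid list differed by -0.09 ± 0.33 and Il7r by -1.75 ± 0.49 (SE), and the summed level was 448 to 1337 against 1169 to 2109. In wild type that sum was mostly Il7r, at a mean of 10.27 log2 against 6.80 for Rora. Which cells carried Il7r was not tested, so its difference is no measure of innate lymphoid cells. The innate lymphoid list averaged -0.91, -0.68 and 0.41 on knockout arrays 1 to 3. Of 7 tested dendritic cell markers 0 were called (0 lower and 2 higher at an unadjusted p under 0.05 in limma), with Irf8 at -0.35 ± 0.33 and Batf3 at 0.60 ± 0.45 (SE). Their summed level was 2490 to 5886 against 2988 to 4579. Of 5 tested myeloid markers 1, Lyz2, was called lower, S100a8 differed by -1.35 ± 0.35 and S100a9 by -0.79 ± 0.35 (SE), and the summed level was 18712 to 42132 against 56448 to 64273. All 6 marker lists averaged lowest on knockout array 1, as did Icos, Tnfrsf4, Btla, Foxp3 and Lag3. With 3 knockout arrays, no relation between these lists and a member was tested.

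**Figure D3:**
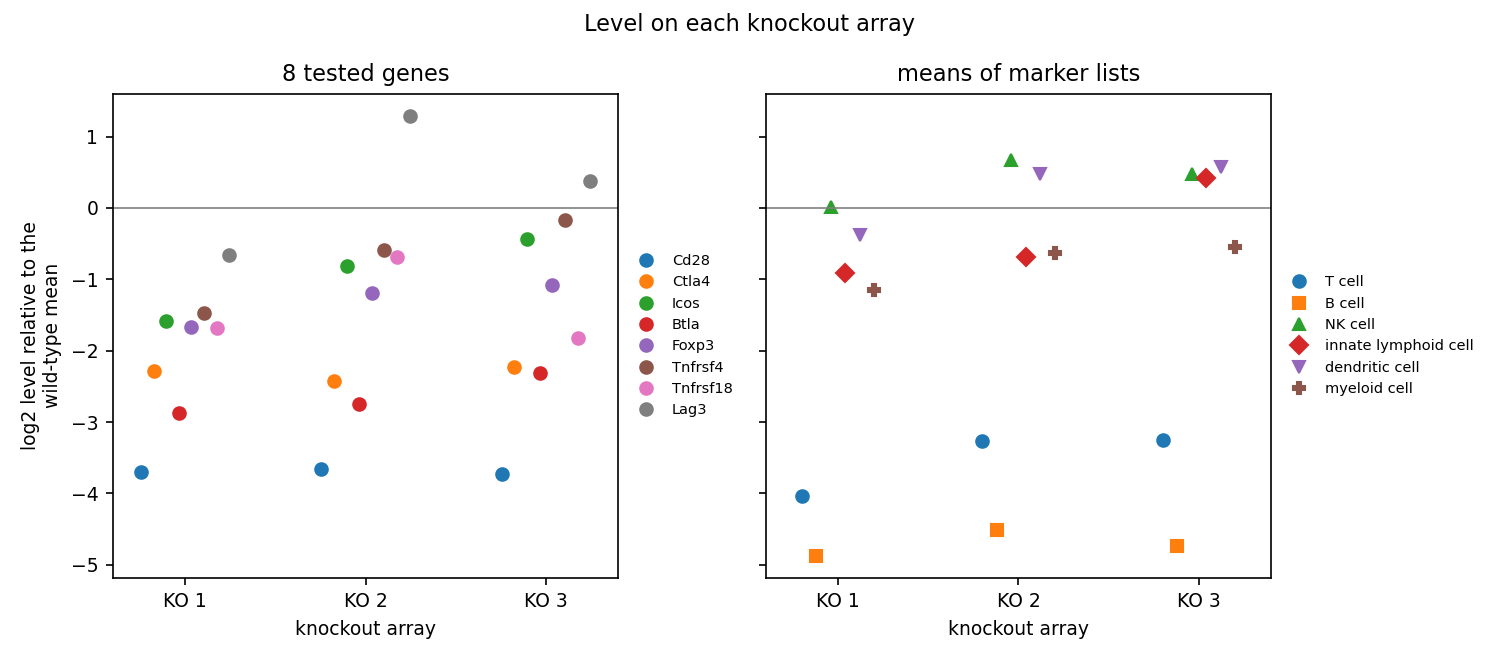
Log2 level relative to the wild-type mean on each of the 3 knockout arrays, for the 8 tested genes (left) and for the means of 6 marker lists (right). Cd28, Ctla4 and Btla stay low on every array beside the T and B cell lists, Lag3 reaches 1.29 on array 2, and all 6 lists are lowest on array 1.

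The partners of these genes were then read from lists of the same pathways. Beside the counts that follow, 2.88% of all tested genes were called lower and 1.04% higher. Of 12 genes for ligands of the members, 10 were on the array and 5 were tested. None was called, with 1 lower and 0 higher at an unadjusted p under 0.05 in limma, and the median difference was -0.19. The ligands of CD28 and CTLA-4, Cd80 and Cd86, differed by -0.19 ± 0.22 and -0.03 ± 0.31, and Cd274, which encodes the PD-1 ligand PD-L1, by -0.57 ± 0.32 (log2, SE). These ligand genes are named outside the rule for named genes, since their values had been seen. Lgals3, a galectin that binds LAG-3, differed by -0.08 ± 0.31, and Clec4g, the lectin LSECtin, by -1.48 ± 0.55 (SE, limma adjusted p = 0.190). The brightest Cd28 probe was thus undetected in knockout spleens in which the differences of its ligand genes were not called.

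Of 10 other costimulatory receptors, 7 were tested and 2 were called lower, with a median difference of -0.54. Cd2, an adhesion and costimulatory receptor of T and NK cells, gave 242, 325 and 235 in the knockout and 1567, 1134 and 1299 in wild type. It differed by -2.58 ± 0.34 log2 (SE, limma adjusted p = 0.00392). Cd27, a TNF receptor family member, gave 389.8, 447 and 434 against 2319.8, 2434 and 2574, a difference of -2.53 ± 0.29 log2 (SE, limma adjusted p = 0.00145). For both genes the groups were far apart. The brightest members of the list that were not called, Slamf1 and Tnfrsf25, differed by -0.17 ± 0.33 and -0.54 ± 0.45 (SE).

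Of 12 other inhibitory receptors, 8 were tested, with a median difference of -0.10 and values on both sides of 0. Cd5, a negative regulator of antigen receptor signalling, was the 1 gene called lower. Its signal was 151, 150.1 and 146 in the knockout and 589, 555 and 558 in wild type, a difference of -3.22 ± 0.23 log2 (SE, limma adjusted p = 6.50e-05). It was detected on 1 of the 3 knockout arrays, so its size rests on a level at background, and the authors' log2 values gave -1.71. Havcr2, the gene of TIM-3, differed by 0.18 ± 0.27 and Cd160 by 0.93 ± 0.36 (SE, limma adjusted p = 0.213). The count of called genes in this list was 3 without knockout array 1 and 2 without knockout array 3.

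Of 16 other genes associated with regulatory T cells, 9 were tested and 3 were called lower, with a median difference of -0.77 (-0.27 with undetected genes at their bound). Gpr83, a receptor enriched in regulatory T cells, gave 172, 127 and 146 in the knockout and 291, 395 and 279 in wild type, a difference of -2.08 ± 0.32 log2 (SE, limma adjusted p = 0.00810). It too was detected on 1 of the 3 knockout arrays, and the authors' log2 values gave -0.93. Capg, an actin-capping protein, differed by -1.73 ± 0.33 (limma adjusted p = 0.0233) and Swap70, a signalling protein of B cells and other leukocytes, by -1.32 ± 0.27 log2 (limma adjusted p = 0.0323). A second Capg probe was not called, at -0.69 (limma adjusted p = 0.299), and a dimmer Izumo1r probe was called lower, at -1.06 (limma adjusted p = 0.0393). Tgfb1 and Nrp1 differed by -0.24 ± 0.49 and -0.22 ± 0.32 (SE), and Ikzf2, Ikzf4, Il10, Entpd1 and Ccr8 were not tested. The count fell to 1 when any 1 of the wild-type arrays was left out.

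Of 10 genes of the IL-2 receptor and its signalling, 8 were tested, with a median difference of -0.09. Bcl2, a survival factor induced by cytokine signals, was the 1 gene called lower. It gave 275, 219.9 and 210.2 in the knockout and 625, 613 and 466 in wild type, a difference of -1.44 ± 0.22 log2 (SE, limma adjusted p = 0.00869). A dimmer Bcl2 probe overlapped between the groups and was not called, at -0.96 ± 0.40 log2 (SE, limma adjusted p = 0.248). Cish and Socs3, feedback inhibitors of cytokine receptors, differed by 0.87 ± 0.38 and -0.20 ± 0.30 (SE). The count was 2 without knockout array 2 and 0 without wild-type array 2.

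Of 15 intracellular partners of the receptors, 12 were tested and 0 were called, with 5 lower and 0 higher at an unadjusted p under 0.05 in limma. Their median difference was -0.39. Ptpn11, the phosphatase SHP-2 that binds the tail of PD-1, differed by 0.02 ± 0.28, and Pik3r1, a PI3-kinase subunit recruited by CD28, by 0.23 ± 0.29 (log2, SE). The count was 1 without knockout array 1. A dimmer probe of Nfatc1 was called lower, at -1.45 ± 0.28 log2 (SE, limma adjusted p = 0.0244). Over the 6 lists, by the brightest probe of each gene, 7 genes were called, all lower. Calls over all tested genes also leaned lower, at 2.88% against 1.04% higher, so the count describes the lists only.

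**Figure D4:**
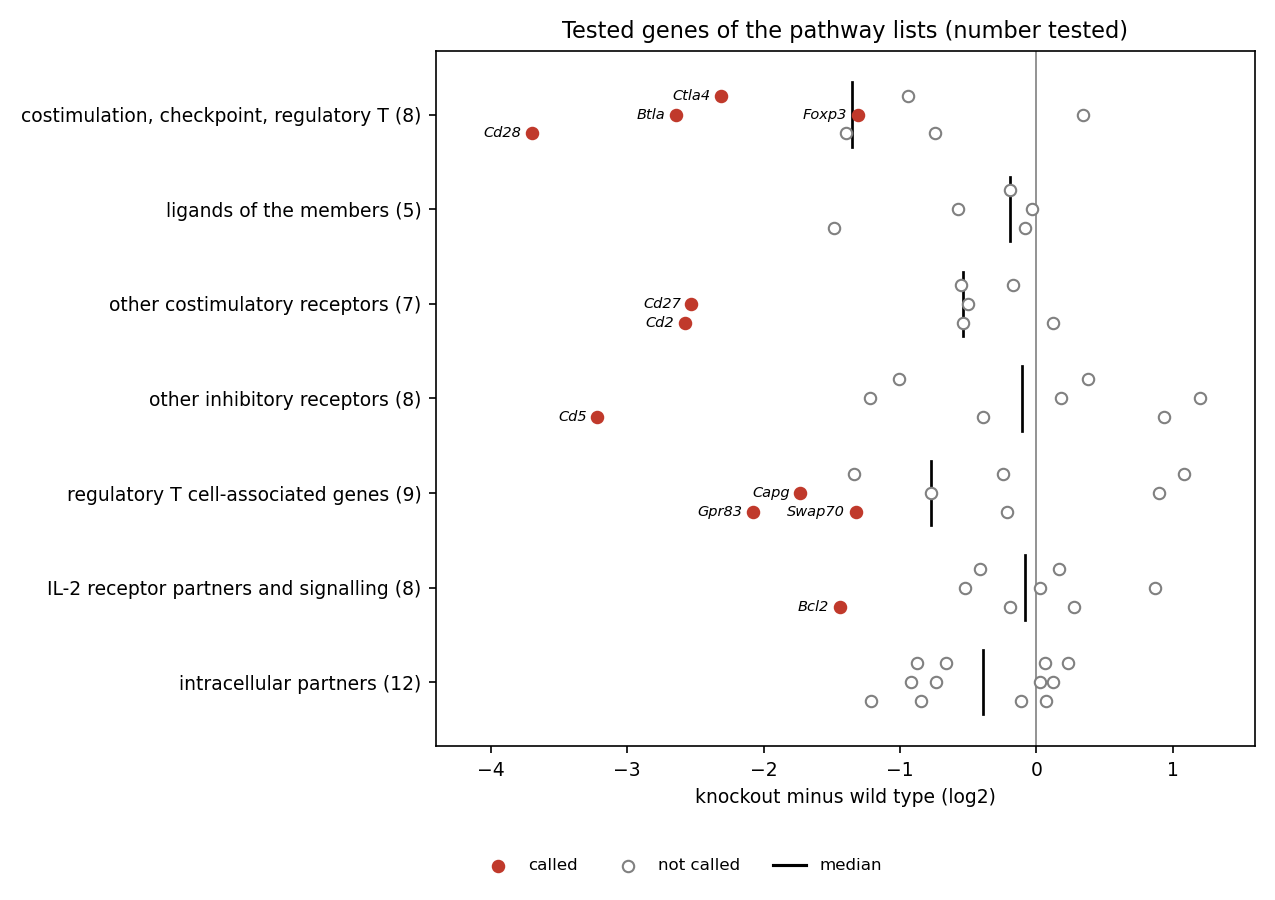
Knockout minus wild type (log2) for each tested gene of the set and of 6 related lists, red where called, with a black line at each list's median. Called genes all lie below 0, and Cd28, Cd5, Btla, Cd2, Cd27, Ctla4 and Gpr83 lie below -2.

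The genes whose levels ran most like those of the called members were sought among 9030 tested, named genes. Likeness was the root mean square difference over the 6 arrays after each gene was set relative to its wild-type mean. For Btla these were Cd69, an early activation antigen, at 0.12, Trat1, a T cell receptor adaptor, at 0.17 and Snn at 0.18 log2. For Ctla4 they were Tmem108 at 0.23, Prok2 at 0.25 and Gpr83 at 0.27. For Cd28 they were Oosp1 at 0.16, Lrrc57 at 0.23 and Scd1 at 0.34, and for Foxp3 Serpina1d and Mef2b, both at 0.12, and Rubcn at 0.13. Arrays in each pair share the same normalisation and background, and likeness at undetected knockout levels mostly records the wild-type level.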

How the data were processed

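Groups and replicate numbers came from the sample titles, and no label says that the arrays of a group were separate animals. The male pattern of knockout array 2 sets its animal apart from those of knockout arrays 1 and 3. For the other arrays of a group this stays unknown, so p-values cover the spread of these samples alone, perhaps technical in part. The authors deposited a table of raw signal intensity per probe with a detection p-value per array, per the file headers, and the submitters' processing notes name GenomeStudio 2011.1. The authors also deposited log2 values, found here to equal quantile-normalised log2 signal without background correction to within 5e-07, with a median of 7.24 on each array and genes not centred.

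Intensities were background corrected, quantile-normalised and logged with neqc (offset 16, negative controls inferred from detection p-values) in limma 3.58.1 under R 4.3.3. Log2 differences therefore understate changes of dim probes, and a shift shared by most transcripts is removed. Probes with a detection p-value under 0.05 on at least 3 of 6 arrays were fitted with lmFit and eBayes (two-sided), with group as the only term. The tested probe of highest mean stood for its gene. The fit was tested on simulated data.

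Symbols came from the platform annotation, with 23978 of 25697 probes having 1 symbol, 0 several and 1719 none, and 23962 matched a RefSeq gene number. The files name no genome build. Sequences came from RefSeq for 7 of 10 members. The rule for named genes took every member, from each related list up to 4 called genes and the 2 brightest uncalled ones, from each marker list the 2 brightest, and the 3 genes most like each called member. Members and lists were chosen with earlier results of these data known.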

Additional observations from a re-analysis of the deposited data

How the results depend on the processing

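Differences of the 8 tested members and counts of calls over the table, the members and the 6 related lists were recomputed under 14 alternatives, except that the table's counts do not depend on which probe stands for a gene. Marker lists, single genes of the related lists and nearest genes were not recomputed. Of 138 counts of calls, 109 stayed within 1.5 times the main count and 29 did not, and of 112 differences of members 98 kept their direction and side of the threshold. Cd28 (-3.91 to -1.29), Ctla4 (-2.53 to -0.99) and Btla (-3.02 to -2.31) were called in all 14. Foxp3 (-1.75 to -0.59) lost its call in 6, including without background correction (adjusted p = 0.0663) and without the detection filter (0.0550). Without normalisation between arrays the median of all probes shifted by -0.33, 857 probes were called lower and 16 higher, and 7 members, 3 other inhibitory receptors and 3 intracellular partners were called; relative to that shift Icos lay at -1.12, Tnfrsf4 at -0.87 and Tnfrsf18 at -1.55, and Lag3, at -0.12, lay at 0.21. Tnfrsf18 was also called with cyclic loess (adjusted p = 0.0454). Without the detection filter 78 probes were called higher and 1 regulatory T cell-associated gene was called.

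Whether replicate numbers pair the samples is not known. Deviations of same-numbered arrays correlated at 0.50, -0.28 and -0.04, and 1 of 3 knockout arrays correlated best with its own number. With 3 arrays per group, these correlations cannot decide it. With the replicate number as a block, 571 probes were called lower and 316 higher, with 5 members (Tnfrsf18 at an adjusted p of 0.0129), 1 ligand, 4 other inhibitory receptors, 5 regulatory T cell-associated genes and 1 intracellular partner. With the dimmest probe of each gene, 1 intracellular partner was called. Leaving out 1 array at a time, on the same tested probes, gave 158 to 473 probes called lower and 7 to 205 higher, 3 to 5 members, 1 to 3 other inhibitory receptors, 0 to 1 intracellular partners, 0 to 2 IL-2 receptor genes, 1 to 3 regulatory T cell-associated genes, and a Lag3 difference of -0.14 to 0.83. The causes of these changes were not tested. Signals near background limit Pdcd1 and Il2ra: without the filter they differed by 0.16 and 0.29 log2 (adjusted p = 0.865 and 0.713).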

Other observations

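Some genes of the related lists lay higher in the knockout without being called, and they are named here after their values were seen. Klrg1, an inhibitory receptor of NK cells and effector T cells, gave raw signals of 286, 367 and 339 in the knockout and 298, 219.5 and 226 in wild type. Its difference was 1.20 ± 0.32 log2 (SE, limma adjusted p = 0.0809). Ebi3, which encodes a subunit of IL-27 and IL-35, gave 600.5, 639.7 and 621 against 456, 488 and 384, a difference of 1.08 ± 0.26 log2 (SE, limma adjusted p = 0.0548). On the normalised values the groups overlapped for neither gene. On the raw scale those of Ebi3 did not overlap either, while for Klrg1 knockout array 1 lay below wild-type array 1. The share of all tested genes with every knockout array above every wild-type array was not computed.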
